A study of Schizosaccharomyces pombe with 12 samples.

Results

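Of the 5136 transcript rows of the count tables, 10 belong to genes of translation elongation and termination: tef101, tef102 and tef103 for elongation factor eEF1A, eft201 and eft202 for eEF2, tef3 for eEF3, tef5 for the eEF1B exchange subunit, tif51 for eIF5A, sup35 for release factor eRF3 and sup45 for release factor eRF1. They were taken by their systematic gene IDs, and all 10 had a row in both tables. The study sequenced ribosome footprints, the stretches of mRNA that a ribosome shields from RNase I, and total RNA of the fission yeast Schizosaccharomyces pombe. Wild type was compared with delta4dus, a genotype whose name was read as the loss of dus1, dus2, dus3 and dus4, the genes of the 4 dihydrouridine synthases, which reduce uridine to dihydrouridine in tRNA. Both genotypes were in mid-log growth without cycloheximide, and each gave 3 libraries of footprints and 3 of total RNA, with the letters A, B and C. The labels do not say whether the letters mark separate cultures, so p-values measure the spread between these libraries, which may be technical, and they give no further alleles or auxotrophies of the strains.

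In each round of elongation eEF1A brings an aminoacyl-tRNA to the ribosome as a complex with GTP, eEF1B recharges eEF1A with GTP, and eEF2 moves the tRNAs and mRNA on by a codon. Fungi also need eEF3, an ATPase of the ABC family, while eIF5A, which carries the modified lysine hypusine, helps at slow peptide bonds and at termination. A stop codon is read by eRF1, and the GTPase eRF3 works with it in releasing the finished protein. The elongation factors, eEF1A above all, are among the most abundant proteins of a growing yeast cell.

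The genes lie on the 3 nuclear chromosomes (RefSeq annotation of ASM294v3; the authors' notes name ASM294v2, so positions here are those of the reference). The eEF1A genes are tef101 (SPCC794.09c, row SPCC794.09c.1, chromosome III:267955-269516, minus strand), tef102 (SPAC23A1.10, row SPAC23A1.10.1, chromosome I:4095132-4096584, plus strand) and tef103 (SPBC839.15c, row SPBC839.15c.1, chromosome II:626004-627522, minus strand). The eEF2 genes are eft201 (SPAC513.01c, chromosome I:2907643-2910261, minus strand) and eft202 (SPCP31B10.07, chromosome III:537290-539922, plus strand). Also on chromosome III lie tef3 (SPCC417.08, 1685645-1688951), tef5 (SPCC1450.04, 1732751-1733847) and sup35 (SPCC584.04, 1535399-1538011), all on the plus strand. On chromosome I lie tif51 (SPAC26H5.10c, 4141281-4142337, minus strand) and sup45 (SPAC1834.01, 4691780-4693738, plus strand), which the reference calls erf1. Only tef5 and sup35 have a coding sequence split over 2 exons. The 10 genes end in the stop codon TAA except sup35, which ends in TAG.

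The eEF1A and eEF2 copies are nearly the same in sequence, which bears on every value given for a single copy. Over 1383 bases of coding sequence tef101 and tef102 differ at 16 positions, tef101 and tef103 at 19, and tef102 and tef103 at 15. Over the 2529 bases of the eEF2 genes the copies differ at 11. The stretches below hold the densest run of such positions found in each family, the coding bases 1291 to 1350 of eEF1A with 7 variable positions and 1 to 60 of eEF2 with 4, and capitals mark the positions at which the copies differ (RefSeq, ASM294v3).
tef101, chromosome III:268130-268189, minus strand: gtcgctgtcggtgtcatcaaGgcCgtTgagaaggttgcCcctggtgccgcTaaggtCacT
tef102, chromosome I:4096492-4096551, plus strand: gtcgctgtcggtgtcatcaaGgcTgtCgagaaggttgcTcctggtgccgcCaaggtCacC
tef103, chromosome II:626139-626198, minus strand: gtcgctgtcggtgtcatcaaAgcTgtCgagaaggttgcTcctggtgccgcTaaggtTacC
eft201, chromosome I:2910170-2910229, minus strand: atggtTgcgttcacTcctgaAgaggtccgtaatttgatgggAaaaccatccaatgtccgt
eft202, chromosome III:537326-537385, plus strand: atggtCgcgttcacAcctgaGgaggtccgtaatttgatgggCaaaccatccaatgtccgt
Of the 25 variable positions of eEF1A, 23 were the third base of a codon, as were 10 of the 11 of eEF2. Footprints of 28 to 32 nt were isolated, and at a length of 30 nt 83.3% of the windows of tef101, 85.3% of those of tef102, 85.9% of those of tef103 and 92.1% of those of either eEF2 copy recur exactly in a sister copy. For tif51 the share was 2.70%, all of it shared with the second eIF5A gene tif512, and for tef3, tef5, sup35 and sup45 it was 0%. How the authors counted reads with several matches is not given in the sources used here, so single copies are uncertain, and a family sum may count a read more than once or miss it.

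The footprint libraries held 601969 to 2591755 counts and the total RNA libraries 1886954 to 2199320. In delta4dus the footprint level was 0% of the wild-type mean for dus1, 12.6% for dus2, 0.401% for dus3 and 35.7% for dus4, the last on 6 to 22 counts per library. The total RNA rows did not track footprints at the upper end: the 100 rows with the most footprints had a median of 4.41 CPM (counts scaled to library size) in total RNA, against 14.5 CPM over all rows. The 10 factor genes together drew 8.86% ± 0.132 (SD, n = 3) of wild-type footprint counts but 0.0177% ± 0.00168 of wild-type total RNA counts, and total RNA rows are therefore described as rows and not as mRNA levels.

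**Figure D1:**
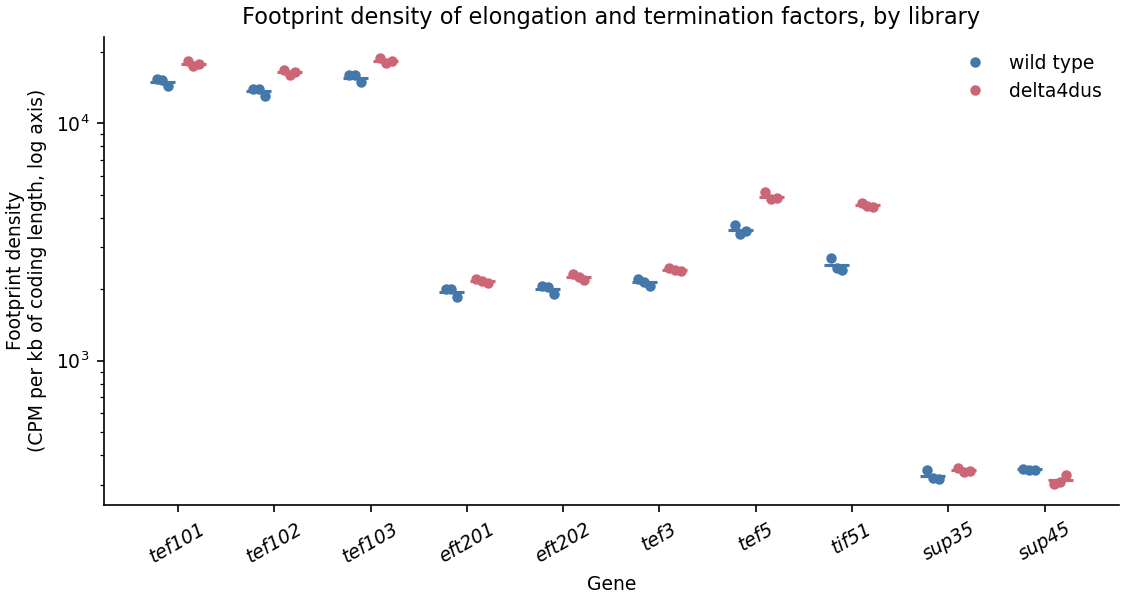
Footprint density of each factor gene (CPM per kb of coding length, log axis) in the 3 wild-type and the 3 delta4dus libraries, with points for libraries and short lines for means. The eEF1A copies sit at 13639 to 18391 on average, the other elongation factors lie lower, and sup35 and sup45 are the lowest at 314 to 348.

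Levels between genes were compared as footprint density, the CPM after TMM scaling divided by the coding length in kb. In wild type tef103 had a density of 15614 ± 592 CPM per kb, tef101 14987 ± 540 and tef102 13639 ± 567 (SD, n = 3). They ranked 3, 4 and 7 among the 5105 rows with an annotated coding length. The ranges of tef103 and tef101 overlapped, though tef103 was the higher within 3 of 3 libraries, while those of tef101 and tef102 did not overlap. Next came the exchange factor gene tef5 at 3551 ± 157 CPM per kb and tif51 at 2524 ± 162.

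The translocation factors followed in a narrow band. Wild-type densities were 2137 ± 75.5 CPM per kb for tef3, 2005 ± 85.5 for eft202 and 1950 ± 81.3 for eft201. The ranges of neighbours in this order overlapped, though within each library the order held in 3 of 3. Summed over copies, eEF2 reached 3956 ± 166 CPM per kb and eEF1A 44240 ± 1693.

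The release factors had the lowest densities of the 10. Wild-type sup45 had 348 ± 1.17 CPM per kb and sup35 328 ± 15.5, and sup45 was the higher of the pair in 3 of 3 libraries. In delta4dus the order of the 10 genes was the same except for this pair, with sup35 at 345 ± 7.66 above sup45 at 314 ± 15.0, again in 3 of 3 libraries. Wild-type libraries held 290 to 829 footprint counts on sup45 and 409 to 1253 on sup35. In delta4dus they held 633 to 1038 and 1126 to 1639, and counting noise limits so close an order.

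Between genotypes, footprints on 8 of the 10 genes rose in delta4dus, those on 0 fell and 2 did not pass the test (edgeR quasi-likelihood test, Benjamini-Hochberg adjusted over 4505 genes, threshold 0.05). Over all genes tested 14.5% rose and 14.1% fell, or 28.6% in either direction. The median log2 change of the 10 was 0.21, against -0.03 over all genes. The genes that rose were all the elongation factor genes, and the pair that did not pass were the release factors. This count depends on the scaling: with library totals alone in place of TMM the median of all genes moved from -0.03 to -0.23, and then 2 of the 10, tef5 and tif51, passed as higher and 2, sup35 and sup45, as lower. Under that scaling 7.41% of all genes were higher and 31.0% lower. In whole cultures a change in footprints of every cell and a change in the share of cells that make a protein cannot be told apart.

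**Figure D2:**
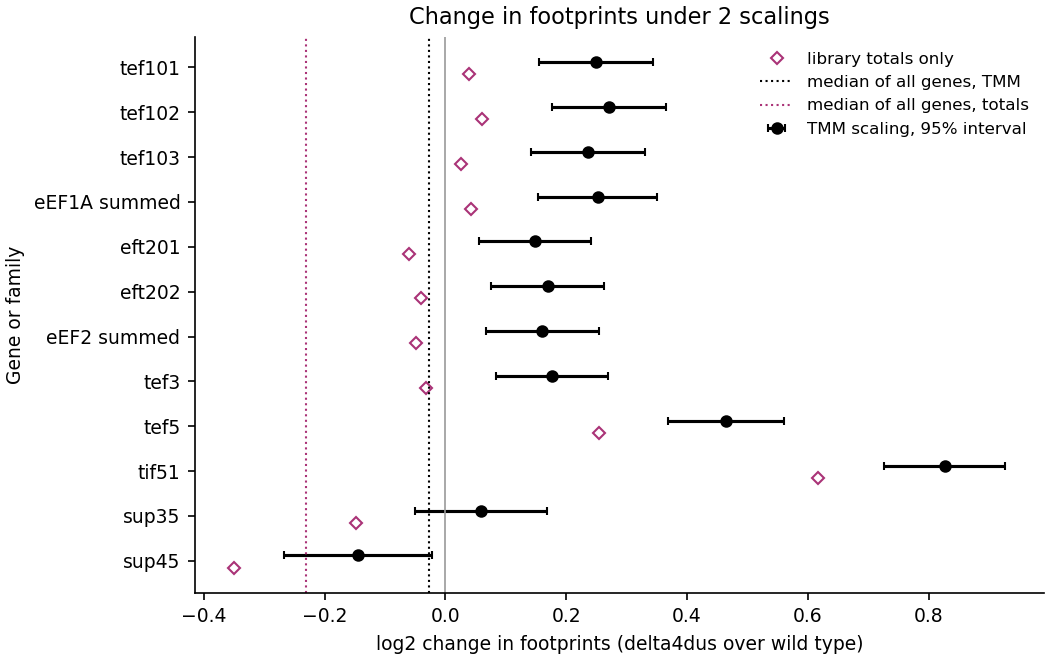
The log2 change in footprints (delta4dus over wild type) of each gene and summed family, with black points and 95% intervals for TMM scaling, open diamonds for scaling by library totals alone, and dotted lines for the median of all genes under each. The interval of tif51 starts at 0.73 and that of tef5 at 0.37, and the diamonds of eft201, eft202, tef3 and sup35 fall below 0.

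The summed eEF1A genes, whose product carries tRNA to the ribosome, had 62682, 62385 and 58485 CPM in wild-type libraries A, B and C and 74627, 70945 and 72920 CPM in delta4dus. Every delta4dus library lay above every wild-type library, as was so for 8 of the 10 genes taken singly and for 19% of all genes tested. The log2 change was 0.25 (SE 0.0493, adjusted p = 2.65e-05), or 0.28 above the median gene, while with library totals alone it was 0.04 (adjusted p = 0.188), or 0.27 above the median gene.

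The 3 copies gave like values. The level of tef101 went from 20728 ± 747 to 24640 ± 613 CPM (log2 change 0.25, SE 0.0472, adjusted p = 1.39e-05). For tef102 it went from 18863 ± 784 to 22756 ± 586 CPM (0.27, SE 0.0473, adjusted p = 2.71e-06), and for tef103 from 21594 ± 818 to 25434 ± 653 CPM (0.24, SE 0.0473, adjusted p = 3.93e-05). Among copies that share most of their 30-nt windows, these are not independent measurements.

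The exchange factor gene tef5 had 2402, 2204 and 2267 CPM in wild type and 3301, 3091 and 3126 CPM in delta4dus. Its libraries did not overlap, and the lowest in delta4dus was well above the highest in wild type. The fold was 1.38 (log2 change 0.46, 95% interval 0.37 to 0.56, adjusted p = 4.87e-13), and with library totals alone the log2 change was still 0.25 (adjusted p = 2.86e-07). In the order of rises, 8.79% of all genes tested stood above it.

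The largest change was that of tif51, the eIF5A gene. Its footprints were 1285, 1162 and 1143 CPM in wild type and 2192, 2123 and 2105 CPM in delta4dus. The genotypes were far apart relative to their spread, with SDs of 76.9 and 45.8 CPM. The fold was 1.77 (log2 change 0.83, SE 0.0503, 95% interval 0.73 to 0.93, adjusted p = 5.46e-24), and 2.89% of all genes tested rose more. With library totals alone the log2 change was 0.62 (adjusted p = 6.24e-17), and relative to the median gene it was 0.85 under either scaling. In density tif51 moved from place 136 to place 100 among the 5105 rows. The eEF1A copies and tef5 (95 to 93) also moved up. The rest moved down, namely tef3 (157 to 172), eft202 (161 to 177), eft201 (168 to 181), sup35 (441 to 471) and sup45 (424 to 491).

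The summed eEF2 genes had 10281, 10212 and 9520 CPM in wild type and 11451, 11193 and 10894 CPM in delta4dus. These did not overlap, but the gap between the nearest libraries was small. The log2 change was 0.16 (SE 0.0468, adjusted p = 0.00555) with TMM and -0.05 (adjusted p = 0.191) with library totals alone. Relative to the median gene summed eEF2 stood 0.19 higher with TMM and 0.18 higher with library totals alone.

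Taken singly, eft201 went from 4933 ± 206 to 5472 ± 111 CPM (log2 change 0.15, SE 0.0466, adjusted p = 0.0104), and eft202 from 5072 ± 216 to 5708 ± 169 CPM (0.17, SE 0.0468, adjusted p = 0.00327). With library totals alone these were -0.06 and -0.04. The call on eft201 was also lost without delta4dus replicate A (0.14, adjusted p = 0.0557), with a filter at a mean of 50 counts (0.09, adjusted p = 0.0768) and with libraries thinned to equal depth (0.12, adjusted p = 0.0566).

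The eEF3 gene tef3 had 6956, 6720 and 6481 CPM in wild type and 7728, 7601 and 7475 CPM in delta4dus, again without overlap. Its log2 change was 0.18 (SE 0.0463, adjusted p = 0.00181) with TMM and -0.03 (adjusted p = 0.414) with library totals alone. Relative to the median gene it stood 0.20 higher under either scaling.

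The eRF3 gene sup35 had 688, 639 and 631 CPM in wild type and 703, 674 and 681 CPM in delta4dus. The genotypes overlapped. The log2 difference was 0.06 (95% interval -0.05 to 0.17, adjusted p = 0.471), and with library totals alone it was -0.15 (adjusted p = 0.0135). Relative to the median gene sup35 stood 0.09 higher with TMM and 0.08 higher with library totals alone.

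The eRF1 gene sup45 had 455, 453 and 452 CPM in wild type and 395, 400 and 431 CPM in delta4dus. All 3 delta4dus libraries lay below all 3 of wild type, as was so for 19.9% of all genes tested. The log2 difference was -0.15 (95% interval -0.27 to -0.02) and did not pass (adjusted p = 0.0674). Without delta4dus replicate C it was -0.19 and passed (adjusted p = 0.046), as it did with library totals alone (-0.35, adjusted p = 6.33e-06). Relative to the median gene sup45 stood at -0.12 under either scaling.

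**Figure D3:**
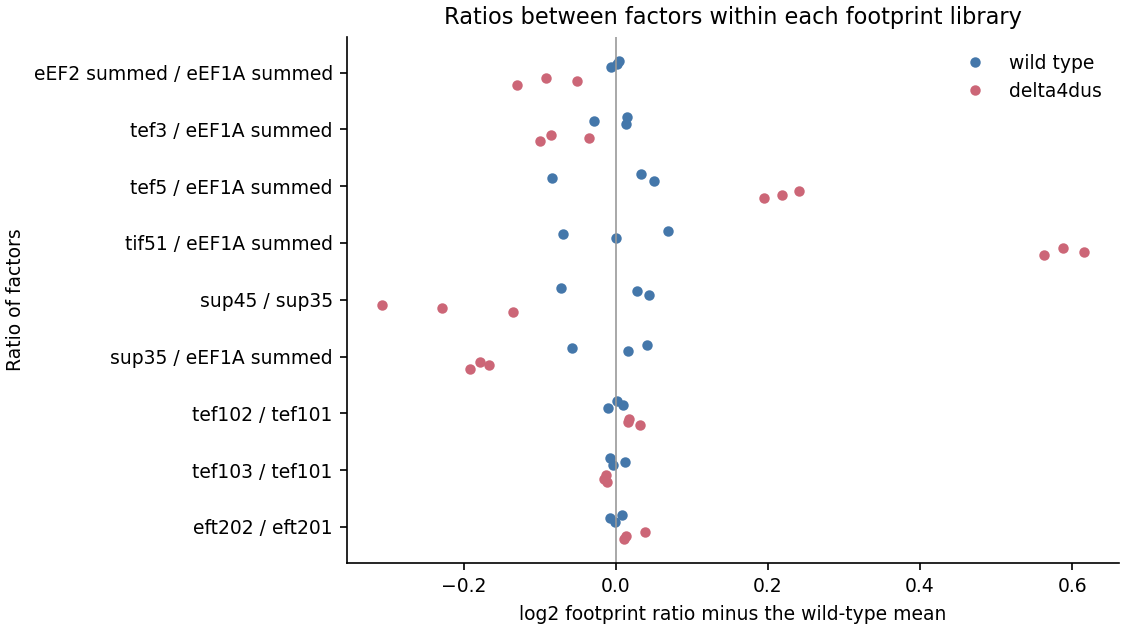
The log2 ratio between factors in each footprint library, minus the wild-type mean of that ratio, with blue points for wild type and red points for delta4dus. The ratio of tif51 to eEF1A stands apart by 0.59 on average, that of tef5 to eEF1A by 0.22, and the ratios between copies of a family stand apart by 0.02, -0.01 and 0.02.

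Ratios of densities within a library do not depend on how libraries are scaled. For each of the 9 ratios examined the genotypes' libraries did not overlap, and each gave an exact permutation p = 0.1 (two-sided, 3 against 3), which is the smallest the design allows and is also 0.1 after adjustment over the 9. None can therefore pass 0.05, and only sizes and spreads are given. The ratios are not independent, since several share summed eEF1A or tef101 as denominator. How often ratios of other gene pairs separate was not examined. Ratios between near-identical copies separated too, at log2 differences of 0.02, -0.01 and 0.02.

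The ratio of tif51 to summed eEF1A was 0.0598, 0.0543 and 0.0570 in wild type and 0.0857, 0.0873 and 0.0842 in delta4dus (log2 0.59). That of tef5 to eEF1A was 0.0803 ± 0.00401 in wild type and 0.0934 ± 0.00146 in delta4dus (log2 0.22). In both ratios every delta4dus library was above every wild-type library.

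Ratios of the translocation factors to eEF1A were lower in delta4dus by small amounts. Summed eEF2 to eEF1A was 0.0894 ± 0.000353 in wild type and 0.0840 ± 0.00229 in delta4dus (log2 -0.09). The ratio of tef3 to eEF1A was 0.0483 ± 0.000806 and 0.0459 ± 0.00107 (log2 -0.07).

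The ratio of sup35 to eEF1A was 0.00741 ± 0.000264 in wild type and 0.00655 ± 0.0000560 in delta4dus (log2 -0.18). For the pair that acts together at stop codons, the ratio of sup45 to sup35 was 1.01, 1.08 and 1.09 in wild type and 0.859, 0.907 and 0.967 in delta4dus (log2 -0.22).

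Between copies, tef102 to tef101 was 0.910 and 0.924, tef103 to tef101 was 1.04 and 1.03, and eft202 to eft201 was 1.03 and 1.04 in wild type and delta4dus. On the log2 scale these differences were 0.02, -0.01 and 0.02.

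As a share of all footprints, the 10 genes took 8.86% ± 0.132 in wild type and 9.10% ± 0.0862 in delta4dus (exact permutation p = 0.1, n = 3 in each). The eEF1A genes took 6.57% ± 0.105 and 6.76% ± 0.0809 (exact permutation p = 0.1). The eEF2 genes took 1.07% ± 0.0213 and 1.04% ± 0.0230, with overlapping libraries (exact permutation p = 0.3). The release factor genes together took 0.119% ± 0.00234 and 0.102% ± 0.00141, with sup35 and sup45 counted as a pair (exact permutation p = 0.1).

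**Figure D4:**
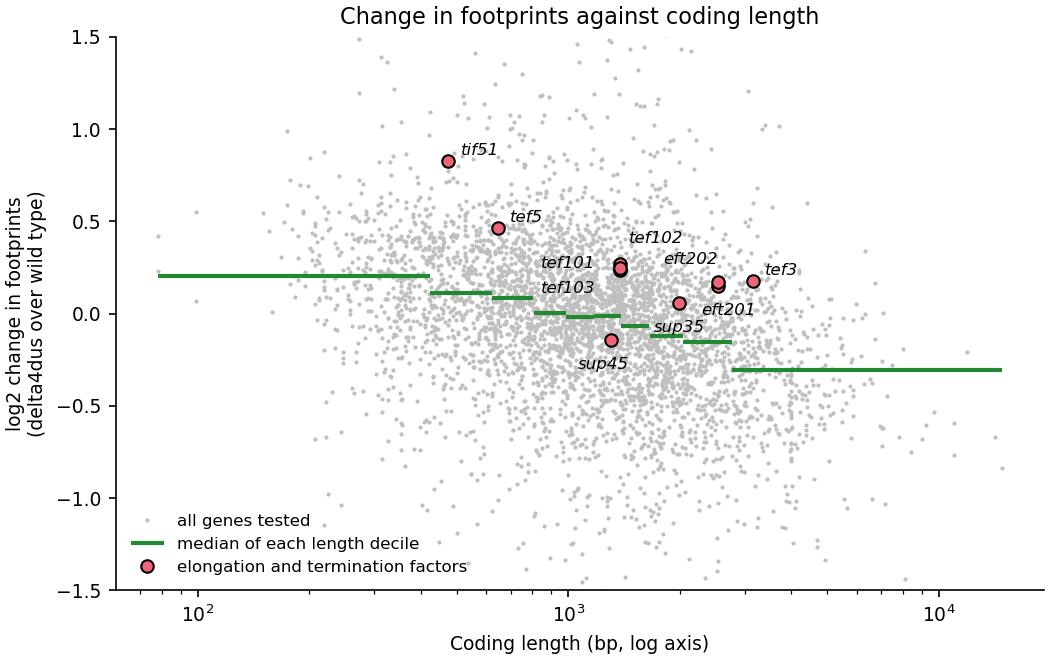
The log2 change in footprints (delta4dus over wild type, TMM) against coding length (bp, log axis) for 4490 genes in grey and the factor genes in red, with green lines at the median of each length decile; 86 genes lie outside the axis limits. The decile medians go from 0.21 for the shortest genes to -0.31 for the longest, and 9 of the 10 factor genes lie above the median of their decile.

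Changes in footprints went with coding length over the whole table. Across 4490 genes, which are not independent replicates, the Spearman rho between length and change was -0.343, and the median change went from 0.21 in the shortest length decile to -0.31 in the longest. The factor genes that changed most are the short ones, tif51 with 474 bp and tef5 with 645 bp, whose deciles had medians of 0.11 and 0.09. Of the genes in its own decile, 4.01% rose more than tif51 and 10.7% more than tef5. The long genes tef3 (3144 bp) and the eEF2 pair (2529 bp) stood at 0.18 and at 0.15 and 0.17, where their deciles had medians of -0.31 and -0.15. In the decile of tef3 8.02% of genes rose more. The part of length in these changes was not tested.

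A promoter element that fission yeast ribosomal protein genes carry was searched in the 250 bases before each annotated gene start, on both strands. The HomolD box, CAGTCACA, was present before 4 of the 10 genes, all eEF1A copies and tef3, and before 134 of 5101 genes in all (2.63%), of which 87 of 137 ribosomal protein genes (63.5%). The HomolE box, AGGGT in tandem, which can accompany it, was present before eft202 alone among the 10, before 1.22% of all genes and before 29.9% of ribosomal protein genes. The matches are shown with 20 bases on each side and the motif in capitals, in the direction of transcription (RefSeq, ASM294v3).
tef101, chromosome III:269533-269580, minus strand: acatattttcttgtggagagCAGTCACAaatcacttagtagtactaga
tef102, chromosome I:4095056-4095103, plus strand: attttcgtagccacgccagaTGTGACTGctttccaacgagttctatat
tef103, chromosome II:627554-627601, minus strand: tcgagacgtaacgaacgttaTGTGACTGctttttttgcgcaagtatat
tef3, chromosome III:1685486-1685533, plus strand: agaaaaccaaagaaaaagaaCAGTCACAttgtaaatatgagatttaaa
eft202, chromosome III:537210-537259, plus strand: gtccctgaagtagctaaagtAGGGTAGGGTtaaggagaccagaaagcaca
In tef102 and tef103 the box stands on the opposite strand, as TGTGACTG. It lies 44, 56, 59 and 139 bases before the annotated start of tef101, tef102, tef103 and tef3. The genes that changed most in footprints, tif51 and tef5, had neither box in this window, and a match describes letters only.

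**Figure D5:**
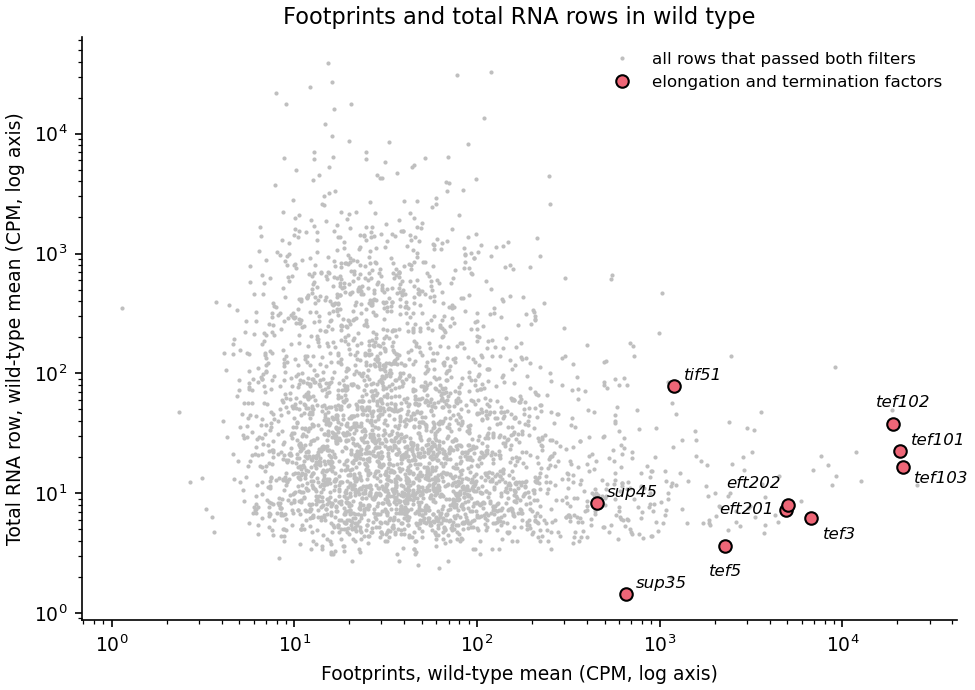
Wild-type means of footprints and of total RNA rows (CPM, log axes) for the rows that passed both filters in grey and for the 10 factor genes in red, of which tef5 and sup35 did not pass the total RNA filter. The eEF1A genes lie at the right edge in footprints and yet between 16.6 and 37.7 CPM in total RNA, where tef102 takes its mean from libraries at 10.3, 94.4 and 8.56 CPM, and tif51 is the highest of the 10 in total RNA at 78.6 CPM.

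In the total RNA table the 10 genes had between 2 and 187 counts per library each, and 8 passed the filter on low counts (tef5 and sup35 did not). In that test 1 of the 8 passed, where 22.9% of all rows did, 12.5% as higher and 10.4% as lower in delta4dus. The genotypes overlapped for all 8, as they did not for 37.1% of all rows. It was tef102, whose wild-type counts were 19, 170 and 16 and whose delta4dus counts were 16, 22 and 18. The difference rested on the 1 wild-type library with 170 counts: the log2 change was -2.08 (adjusted p = 0.048) with it and -0.11 (adjusted p = 0.863) without it. The wild-type counts of the tif51 row, 170, 102 and 163, overlapped those of delta4dus, 187, 186 and 152 (log2 0.06, 95% interval -0.26 to 0.39, adjusted p = 0.812).

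The change in the ratio of footprints to total RNA rows was tested as the interaction of genotype and assay over all 12 libraries. Of 8 genes tested 2 rose, tif51 (0.77, SE 0.147, adjusted p = 0.000269) and tef102 (2.35, SE 0.562, adjusted p = 0.0028), where 5.83% of 3330 genes rose and 14.7% fell. For tef102 this again rested on wild-type replicate B (0.40, adjusted p = 0.546 without it). The other 6 lay between -0.50 and 0.61 and did not pass, although tef103 did with DESeq2 (0.72, adjusted p = 0.0227). Summed eEF1A passed (1.11, SE 0.294, adjusted p = 0.00603), with a total RNA change of -0.86 (adjusted p = 0.0624), and this rested on the same library, since without wild-type replicate B the interaction was 0.51 (adjusted p = 0.204) and the total RNA change -0.24 (adjusted p = 0.445). It was also lost without delta4dus replicate A (0.93, adjusted p = 0.0678). Summed eEF2 did not pass (0.46, adjusted p = 0.223). Annotated RNAs on the opposite strand overlap the exons of 8 of the 10 genes, by 52 to 1826 bp, with sup45 the most covered, while tef3 and tif51 have none. The strand setting of the counting is not given in the sources used here, so reads from the opposite strand cannot be told apart from the genes' own.

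The authors' deposited table gives footprint log2 changes of 0.92 for tif51, 0.56 for tef5, 0.33 to 0.36 for the eEF1A genes, 0.24 and 0.26 for eft201 and eft202, 0.27 for tef3, 0.15 for sup35 and -0.06 for sup45. The order of footprint changes in that table is thus led by tif51 and tef5 as well. Its adjusted p-values for the change in footprint to total RNA ratio differed from those of the interaction test. The authors' values were 0.00329 for tef101, 0.000628 for tef103, 0.0314 for eft202, 0.0152 for tef5 and 1.54e-15 for tif51. For tef102, eft201, tef3, sup35 and sup45 they were 0.0636, 0.135, 0.959, 0.916 and 0.763. In the interaction test tef101, tef103 and eft202 did not pass, tef102 did, and tef5 and sup35 were not tested. The cause was not tested.

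Other genes of elongation, termination, rescue and recycling, taken by annotated product, gave a mixed picture: of 11 tested, 3 passed as higher, 1 as lower and 7 did not pass, with a median of 0.02, where 14.5% of all genes rose and 14.1% fell. SPAC29A4.02c, the gamma subunit that joins the exchange factor in the eEF1B complex, rose from 2477 ± 106 to 3283 ± 93.4 CPM (0.40, adjusted p = 5.19e-11), and with library totals alone it stood at 0.20. The second eIF5A gene tif512 rose from 1987 ± 97.8 to 2564 ± 53.5 CPM (0.36, adjusted p = 2.06e-09), against 0.83 for tif51, and the difference between these copies was not tested. The ribosome recycling ATPase gene rli1 passed with TMM (0.20, adjusted p = 0.0206) and stood at -0.0022 with library totals alone. That call held in 5 of 12 alternative settings and was lost, among others, with DESeq2 (adjusted p = 0.0937), without wild-type replicate A (0.145), without delta4dus replicate B (0.0865) and without delta4dus replicate C (0.0831). The gene that fell was elf1, annotated as an AAA family ATPase (-0.27, adjusted p = 0.000624), and with libraries thinned to equal depth it did not pass (-0.20, adjusted p = 0.0847).

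Enzymes that modify these factors were tested as a list of 7, of which 1 rose, 1 fell and 5 did not pass, with a median of 0.03. These counts are near the shares over all genes, 14.5% higher and 14.1% lower. Hypusine on eIF5A is made by dys1, the deoxyhypusine synthase gene, and then by mmd1, the deoxyhypusine hydroxylase gene. Footprints on mmd1 fell from 402 ± 18.2 to 247 ± 11.4 CPM (log2 -0.70, adjusted p = 2.87e-14), while dys1 had 218 ± 5.89 and 226 ± 4.21 CPM (0.06, adjusted p = 0.616). Diphthamide is the modified histidine of eEF2, and of its enzymes dph3 rose from 32.2 ± 3.63 to 54.7 ± 3.79 CPM (0.75, adjusted p = 0.000295). With libraries thinned to equal depth dph3 stood at 0.60 and did not pass (adjusted p = 0.0761).

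Of 34 tested genes whose product names an initiation factor, 8 rose, 2 fell and 24 did not pass, with a median of 0.07. Over all genes 14.5% rose and 14.1% fell. With library totals alone 0 of the 34 were higher and 15 lower, where 7.41% of all genes were higher and 31.0% lower. Those with the smallest p-values were tif11, for eIF1A (0.35, adjusted p = 1.24e-05), sui1, for eIF1 (0.29, adjusted p = 1.67e-05), eif21, for eIF2A (-0.38, adjusted p = 3.93e-05), and tif307, for the eIF3g subunit (0.28, adjusted p = 0.000367). With library totals alone tif11, sui1 and tif307 stood at 0.15, 0.09 and 0.08 and did not pass, and with libraries thinned to equal depth eif21 did not (-0.23, adjusted p = 0.127). None of 2 mitochondrial elongation factor genes and none of 5 genes whose product names a tRNA ligase or synthetase passed.

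The genes whose footprints followed summed eEF1A most closely over the 6 footprint libraries were ilv1, cpc2, tpi1, rps002 and adh1. Likeness was measured as the root mean square difference of centred log2 CPM over 2530 genes, and it was 0.00943 for ilv1, an acetolactate synthase gene, 0.0100 for cpc2, the RACK1 ribosomal protein gene, 0.0171 for tpi1, the triosephosphate isomerase gene, 0.0198 for rps002, a small-subunit ribosomal protein gene, and 0.0207 for adh1, the alcohol dehydrogenase gene. Of the other factors, tef3 stood at place 43, eft202 at 56, eft201 at 94, sup35 at 331, tef5 at 503, sup45 at 1309 and tif51 at 1901. No allowance was made for counting noise, which is larger for genes with fewer counts, and its part in these places was not tested. By this measure, which includes the size of the change between genotypes, tif51 was the least like eEF1A of the 10. Its log2 change of 0.83 had the same direction as the 0.25 of summed eEF1A, while that of sup45 was -0.15.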

How the data were processed

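The authors deposited a table of raw counts per transcript for each assay, and the submitters' processing notes list featureCounts, HISAT2, Bowtie2 2.4, Trimmomatic 0.36 and the build ASM294v2, with no strand or multiple-match setting. The log2 values and p-values of the authors' comparison table were used as deposited. All 12 count columns matched a sample, with 0 columns left over. Gene positions, sequences and products come from RefSeq's ASM294v3 annotation, matched by systematic ID (5105 of 5136 rows), so no coordinate was moved between builds. The 10 genes, the gene lists and the tests were chosen with earlier results of these data known.

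In R 4.3.3, counts were tested by the two-sided quasi-likelihood test of edgeR 4.0.16, after its default filter on low counts and TMM scaling, per assay 3 against 3, and for the ratio of assays as an interaction over 12 libraries. Family sums replaced their copies in a separate fit. Ratios and shares used exact permutation tests (scipy 1.17.1). CPM use TMM-scaled totals. Alternatives were DESeq2 1.42.0, library totals without TMM, no count filter, a mean of at least 50 counts, the replicate letter as a block, footprint libraries thinned to 601969 counts, and leaving out each library. The fits were tested on simulated data. Chi-square per degree of freedom between replicates was 1.45 to 1.66 for footprints and 1.75 to 4.57 for total RNA, so no library was a copy of another. Counts of libraries limit precision, and PCR duplicates were not marked, so SDs over libraries are given.

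Besides the 10 genes and both sums, the text names up to 4 called genes per list with the smallest p, and the 5 genes most like eEF1A; dys1 was named after its value was seen. The product words also caught mitochondrial mrf1, tsf1 and tuf1 in the list of other elongation and termination genes, and the tRNA ligase words matched few of the enzymes. In the initiation factor list they caught mti2 (IF-2Mt), tif6 (annotated as an initiation factor-like ribosome biogenesis protein) and cdc123 (an eIF2 assembly protein). Joins and plots used matplotlib 3.10.9, pandas 2.3.3 and numpy 2.4.6 in Python 3.11.15.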

Additional observations from a re-analysis of the deposited data

How the results depend on the processing

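The rises of tef5 and tif51 passed under all 12 alternatives, with log2 changes of 0.25 to 0.51 and 0.62 to 0.90. Scaling decided most of the rest, since library totals alone lower the footprint median by 0.20. With totals alone 334 genes were higher and 1397 lower in footprints (654 and 635 with TMM), 2 of the 10 genes were higher and 2 lower, summed eEF1A was at 0.042 and summed eEF2 at -0.049, and eft201, eft202, tef3, sup35 and rli1 turned to -0.060, -0.040, -0.033, -0.15 and -0.0022. The same scaling gave 825 and 81 total RNA rows higher and lower (475 and 394 with TMM), with 0 of the 10 lower, and in the interaction 67 and 1356 genes (194 and 490) with 1 of the 10 lower.

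DESeq2 called 335 genes lower in footprints, 229 total RNA rows higher with 0 of the 10 lower, and 283 genes lower in the interaction. A mean of at least 50 counts put summed eEF2 at 0.11 (adjusted p = 0.0553), made 1 of the 10 lower in footprints (sup45) and 0 lower in total RNA, and left 78 and 156 interaction calls with 1 of the 10 higher. With that filter 19.7% of all genes tested were higher and 19.7% lower in footprints. Thinning gave 431 and 361 footprint calls and a ratio of eft202 to eft201 of 0.044 on the log2 scale. The cause of these differences was not tested, apart from the fewer genes tested and counts kept that filtering and thinning bring.

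Leaving out 1 library at a time gave 517 to 619 genes higher and 437 to 584 lower in footprints, 7 to 8 of the 10 higher and 0 to 1 lower, summed eEF1A at 0.22 to 0.28 and summed eEF2 at 0.12 to 0.19. It gave 262 to 434 total RNA rows higher and 187 to 478 lower, with 0 to 1 of the 10 lower, and 122 to 190 interaction calls higher and 315 to 407 lower, with 1 to 2 of the 10 higher. For the family sums in total RNA and in the interaction the alternatives were chosen after seeing the data, and the interaction of summed eEF1A was lost with DESeq2 (adjusted p = 0.133) and a mean of at least 50 counts (adjusted p = 0.257).

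Whether the replicate letters pair the libraries was not settled. Same-lettered footprint libraries of the genotypes had correlations of 0.017 to 0.043, weak but above the -0.039 to 0.0091 of different letters. In total RNA same letters gave -0.31 to 0.030 and different letters -0.20 to 0.23. With the letter as a replicate block, 592 genes were higher and 548 lower in footprints, 8 of the 10 were higher and 0 lower, and 297 and 197 total RNA rows were higher and lower. In total RNA no factor gene but tif51 and tef102 passed 59 counts in any library, which limits what those rows can show.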
